A study of Mus musculus with 5 samples.

Results

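The matrix metalloproteases (Mmp), the ADAMTS proteases and their tissue inhibitors (Timp) were followed across the cell classes of mouse skin by single-cell RNA sequencing. Members were chosen by gene symbol, with Mmp12 and Mmp19 left out: 20 Mmp, 19 Adamts and 4 Timp genes, 43 of the 31053 genes in the tables. The 5 groups had 1 library each: whole skin with lesions from K5. Pp6fl/fl mice aged 18 weeks (lesional skin), wild-type dermis at 10 weeks after 5 days in a row of imiquimod on the ear (imiquimod dermis), wild-type dermis at 10 weeks without treatment (untreated dermis), epidermis of lesion-free K5. Pp6fl/fl mice at 10 weeks (non-lesional epidermis), and wild-type epidermis at 10 weeks without treatment (untreated epidermis). All mice were on the C57BL/6 strain. Imiquimod is a Toll-like receptor agonist used to provoke psoriasis-like skin inflammation, and the lesions of the K5. Pp6fl/fl mice are described as psoriasis-like. The labels say no more of the K5 allele, and do not state the number of mice behind a library. The lesional library differs from the imiquimod dermis in tissue, age, genotype and treatment at the same time, so in that comparison these cannot be told apart. It differs from the non-lesional epidermis in tissue and age as well as in lesions. From the untreated dermis it differs in tissue, age and genotype as well as in lesions, and these cannot be told apart either.

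Matrix metalloproteases are zinc enzymes made as inactive precursors. Collagenases such as MMP8 and MMP13 cut fibrillar collagen, gelatinases such as MMP2 and MMP9 cut denatured and basement-membrane collagen, stromelysins such as MMP3 and MMP10 cut many matrix proteins and can activate other precursors, and the membrane-bound MMP14 activates the MMP2 precursor at the cell surface. ADAMTS enzymes are secreted relatives: one branch trims procollagens, and another cuts large proteoglycans such as versican and aggrecan. TIMPs bind and inhibit these enzymes. Because activity depends on precursor cleavage and on inhibitors, a transcript level is not a level of proteolysis.

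Of the 20 Mmp genes, 8 lie together within 427 kb of chromosome 9 (chr9:7272514-7699585, mm10, GENCODE M21), in the order Mmp13, Mmp1b, Mmp3, Mmp10, Mmp8, Mmp27, Mmp20 and Mmp7. The RefSeq promoters (GRCm38.p6, 250 bases before to 50 bases after the start) cover 30 of the 43 members and were searched on both strands for TGAGTCA, the consensus site of the AP-1 transcription factors, which are known inducers of collagenase and stromelysin genes. The 7 letters or their reverse complement TGACTCA were present in 5 of 30 member promoters (16.7%), against 5.95% of the 27025 genes with a promoter in the table. All 5 belonged to the chromosome 9 cluster, and none of the other member promoters held the motif in this window. The TATA-box letters TATAAA, or TTTATA, were present in 9 of 30 member promoters, 7 of them in the cluster, against 15.7% of all genes. The 100 bases before each of the 5 starts are shown because Mmp3, Mmp10 and Mmp13 recur in the results below. The letters are given 5′ to 3′ in the direction of transcription, and capitals mark the AP-1 motif, which begins 35 bases before the start in Mmp13 (chr9:7272414-7272513, plus strand), 93 in Mmp1b (chr9:7388027-7388126, minus strand), 46 in Mmp3 (chr9:7445722-7445821, plus strand), 63 in Mmp10 (chr9:7502242-7502341, plus strand) and 63 in Mmp7 (chr9:7691990-7692089, plus strand). A match describes the letters and does not show binding.
Mmp13: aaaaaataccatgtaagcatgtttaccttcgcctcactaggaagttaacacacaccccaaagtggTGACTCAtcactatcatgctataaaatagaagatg
Mmp1b: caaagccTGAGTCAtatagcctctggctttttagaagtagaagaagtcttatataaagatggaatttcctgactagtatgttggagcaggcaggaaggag
Mmp3: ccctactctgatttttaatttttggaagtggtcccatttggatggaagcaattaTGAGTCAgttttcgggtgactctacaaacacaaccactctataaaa
Mmp10: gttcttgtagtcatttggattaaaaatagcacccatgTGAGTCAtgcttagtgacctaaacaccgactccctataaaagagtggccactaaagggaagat
Mmp7: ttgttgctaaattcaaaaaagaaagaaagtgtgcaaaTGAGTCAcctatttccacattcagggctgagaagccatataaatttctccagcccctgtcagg

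After filtering, 11577 of 13288 barcodes remained: 2579 in the lesional library, 4776 in the imiquimod dermis, 519 in the untreated dermis, 2805 in the non-lesional epidermis and 898 in the untreated epidermis. The cells of a library held between 2951145 and 38118209 UMIs (unique molecular identifiers, 1 per captured transcript molecule), with medians per cell from 3408 to 8281. The lesional library shared no barcode with any other library, while the other 4 shared 1 to 27 per pair. Matching the tissue labels, fibroblasts numbered 5 in the non-lesional and 7 in the untreated epidermis, and keratinocytes 10 in the untreated dermis. Ppp6c, the catalytic subunit of protein phosphatase 6, was present in keratinocytes of every library that held enough of them, at 51.5 CPM in lesional skin, 71.9 CPM in non-lesional epidermis and 80.2 CPM in untreated epidermis. The labels do not say which part of the gene the allele removes, so this 3′ count does not check the genotype. Levels (CPM) are the UMIs of a gene per 1000000 UMIs of a cell class in a library, and brackets give 95% exact intervals, which cover counting error only. With 1 library a group there is no replicate and no test. A member is called higher or lower where the interval of its ratio lies wholly beyond 1.5-fold, and measured where both libraries together held 10 UMIs and either reached 10 CPM. Only classes with at least 20 cells in a library are given.

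The members together had 152031 UMIs. At least 50 UMIs were found for 34 members, while 9 had fewer and 7 of these had under 10: Mmp24 had 9, Adamts13, Mmp21, Mmp20 and Mmp1b had 2 each, and Adamts16 and Mmp7 had 1 each. Adamts3 had 35 UMIs and Adamts19 had 11. No member was at 0. Among classes with at least 10 UMIs of the gene, the highest level was in fibroblasts for 20 of the 34, in pericytes or smooth muscle for 4, in keratinocytes, neutrophils, vascular and lymphatic endothelium for 2 each, and in Schwann and dendritic cells for 1 each. The collagenase Mmp8 and the gelatinase Mmp9 were the members highest in neutrophils. Where all other genes have their highest level was not counted, so the fibroblast count is a description of the members only.

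**Figure D1:**
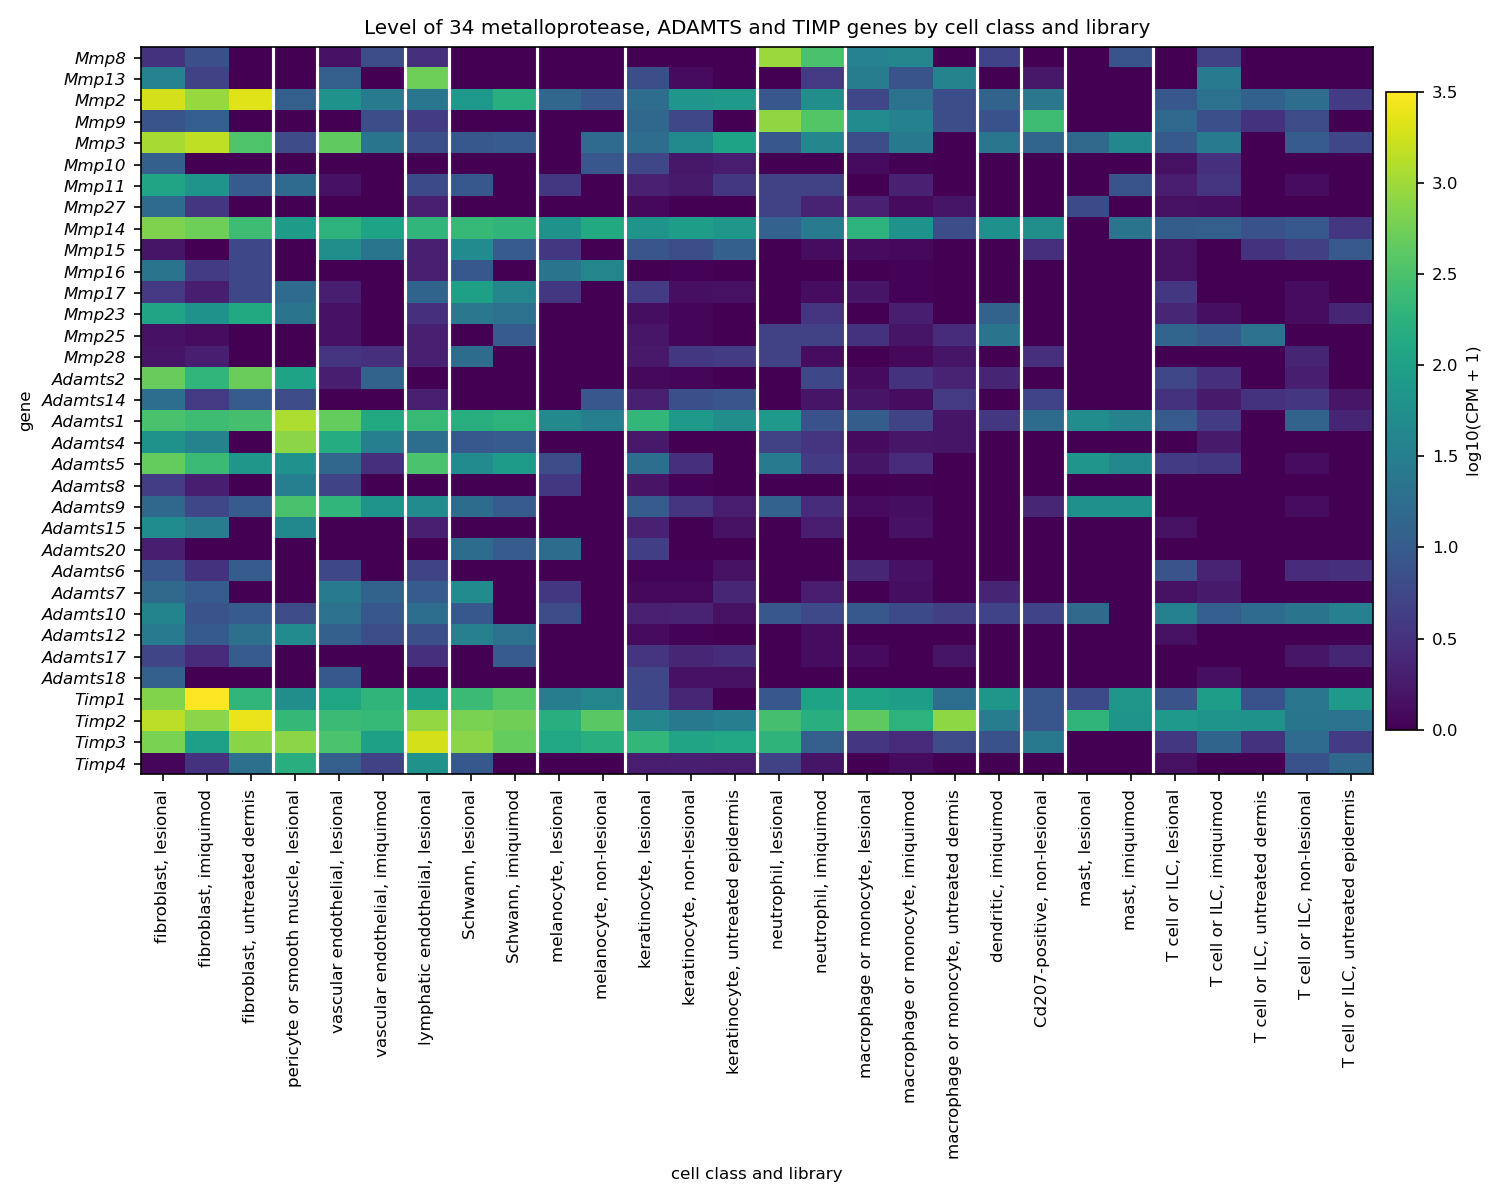
Level of the 34 members with at least 50 UMIs (rows, ordered as secreted Mmp, membrane-bound and other Mmp, Adamts and Timp genes) in each cell class and library with at least 20 cells (columns), as log10(CPM + 1). Fibroblast columns are bright over many rows, Mmp8 and Mmp9 stand out in neutrophils, and Timp3 is bright in lymphatic endothelium, where it had 1903 CPM in lesional skin.

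Fibroblasts, which make and remodel the dermal matrix, numbered 638 in lesional skin, 291 in the imiquimod dermis and 23 in the untreated dermis. In imiquimod fibroblasts the stromelysin Mmp3, the surface activator Mmp14 and the inhibitor Timp1 were higher than in untreated dermis, and the gelatinase Mmp2 and the inhibitors Timp2 and Timp3 were lower. Of 16 measured members 7 were called higher, where 3.65% of all measured genes were, and 5 were called lower, where 9.23% of all measured genes were. The members' median log2 ratio, with 5 CPM added to both levels, was 0.41, against −0.19 over all measured genes.

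Timp1 (chrX:20870166-20874735, plus strand) inhibits most secreted metalloproteases. It had 695 CPM in lesional fibroblasts, 3258 CPM (3195 to 3322) in imiquimod fibroblasts and 201 CPM in untreated fibroblasts. The imiquimod level was 16.2-fold (12.0 to 22.4) the untreated one, or 4.17 on the log2 scale relative to all genes. Only 43 UMIs stood behind the untreated level, 28 of them in 1 cell, and without the top cell of each library the ratio was 41.2. Before any scaling, Timp1 was also the one member called lower in lesional than in imiquimod fibroblasts, 4.69-fold (4.54 to 4.84). It stood 3.46-fold above untreated dermis in lesional fibroblasts, or 8.79-fold without the top cell. The order of the libraries was thus imiquimod, lesional, untreated, with intervals that do not meet.

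The other inhibitors ran the other way. Timp3 (chr10:86300372-86349506, plus strand), which binds to the matrix and also inhibits proteoglycan-cutting ADAMTS enzymes, had 624 CPM in lesional, 92.8 CPM in imiquimod and 761 CPM in untreated fibroblasts. It was 8.20-fold (6.73 to 9.97) lower in imiquimod than in untreated fibroblasts, a ratio of 0.122 that was 0.0684 as a mean over cells, and 6.72-fold (5.97 to 7.59) higher in lesional than in imiquimod fibroblasts. Lesional and untreated fibroblasts differed by 1.22-fold, which was not called. Of the 163 untreated Timp3 UMIs 43 were in 1 cell, and without it the untreated level was 580 CPM. Timp2 (chr11:118301069-118355740, minus strand), the partner of MMP14 in activating the MMP2 precursor, had 1415 CPM in lesional, 778 CPM in imiquimod and 2507 CPM in untreated fibroblasts. It was 3.22-fold lower in imiquimod than in untreated fibroblasts, 1.82-fold higher in lesional than in imiquimod fibroblasts, and 1.77-fold lower in lesional than in untreated fibroblasts. Timp4 was rare, at 7 UMIs in imiquimod and 4 in untreated fibroblasts, and was called 8.31-fold lower (1.78 to 32.7) in the imiquimod class; with classes from joint clusters the ratio was 0.557, against 0.120 here.

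Among the enzymes, Mmp3 had 1096 CPM in lesional, 1439 CPM in imiquimod and 346 CPM in untreated fibroblasts. The imiquimod level was 4.16-fold (3.31 to 5.31) and the lesional level 3.17-fold (2.52 to 4.04) the untreated one. One untreated cell held 34 of 74 UMIs and one lesional cell 973 of 9197. Without the top cells the ratios were 6.56 and 4.90. Lesional and imiquimod fibroblasts differed by 1.31-fold, which was called, as lower in lesional, only after scaling by the median ratio of all genes. Mmp14 (chr14:54431612-54445364, plus strand) had 655, 537 and 261 CPM in lesional, imiquimod and untreated fibroblasts, so that imiquimod was 2.05-fold and lesional 2.51-fold above untreated dermis. Mmp11, a stromelysin of remodelling stroma, had 111 CPM in lesional, 63.6 CPM in imiquimod and 9.34 CPM in untreated fibroblasts. The last value rests on 2 UMIs, and the ratios to it were 11.8 (3.27 to 97.9) for lesional and 6.81 (1.86 to 56.6) for imiquimod fibroblasts; without the top cells they were 21.8 and 12.2.

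Mmp2 (chr8:92827291-92853420, plus strand), like Timp2 and Timp3, was lowest in the imiquimod library. It had 1884 CPM in lesional, 897 CPM in imiquimod and 2157 CPM in untreated fibroblasts. It was 2.40-fold (2.17 to 2.65) lower in imiquimod than in untreated fibroblasts and 2.10-fold (2.02 to 2.19) higher in lesional than in imiquimod fibroblasts. Mmp23, a membrane-anchored enzyme without a classical zymogen switch, had 109, 60.4 and 131 CPM in lesional, imiquimod and untreated fibroblasts, and its 2.17-fold lower level under imiquimod (1.40 to 3.23) was not called.

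**Figure D2:**
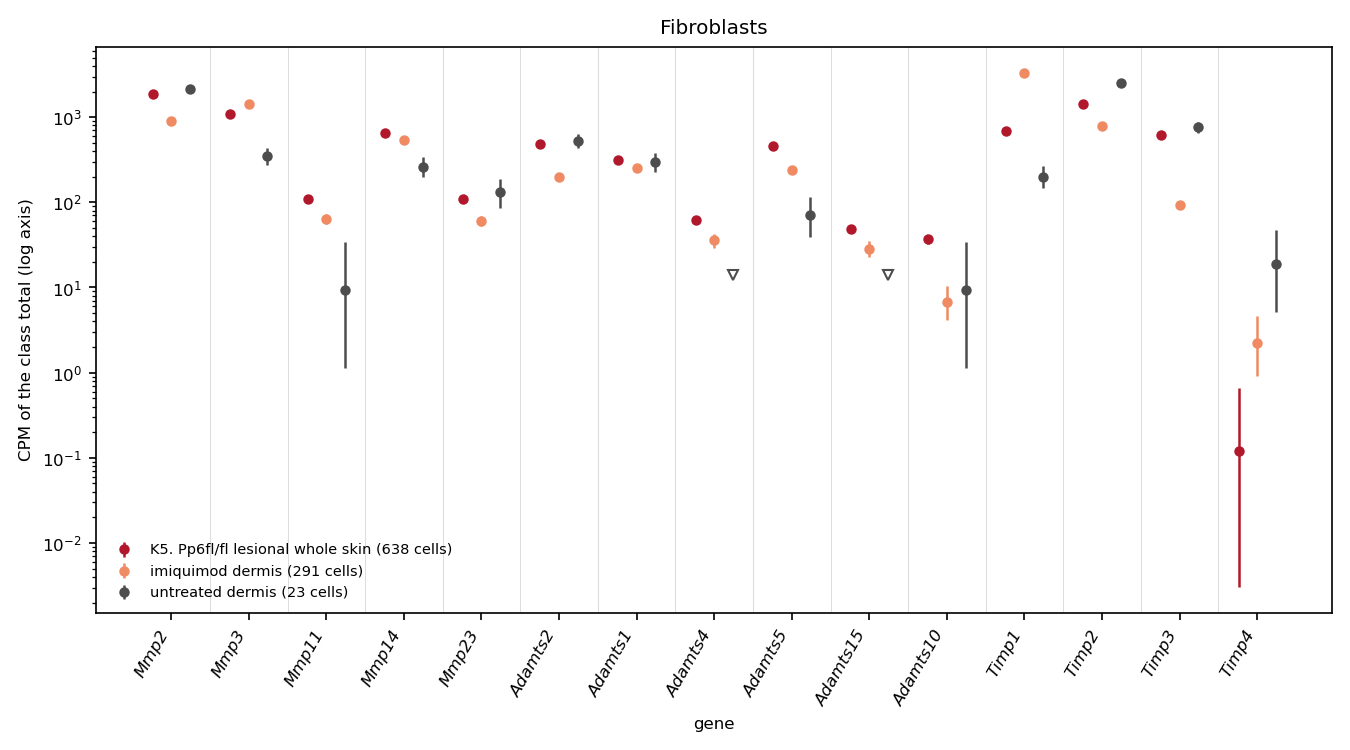
Level of 15 members in fibroblasts of lesional, imiquimod and untreated dermis libraries, as CPM of the class total on a log axis; bars are 95% exact Poisson intervals and open triangles mark the level of 3 counts where a library had 0. Timp1 is highest in the imiquimod library, while Timp2, Timp3, Mmp2 and Adamts2 are lowest there.

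Among the ADAMTS genes of fibroblasts, Adamts2 was lower and Adamts4, Adamts5 and Adamts15 were higher in imiquimod than in untreated dermis. Adamts2, the main procollagen N-proteinase of skin, had 489 CPM in lesional, 197 CPM in imiquimod and 523 CPM in untreated fibroblasts, 2.65-fold (2.15 to 3.24) lower in imiquimod than in untreated fibroblasts and 2.48-fold higher in lesional than in imiquimod fibroblasts. The proteoglycan-cutting Adamts5 had 463, 239 and 70.0 CPM in lesional, imiquimod and untreated fibroblasts, 3.41-fold (2.05 to 6.13; 2.26-fold as a mean over cells) higher in imiquimod and 6.61-fold (4.0 to 11.8) higher in lesional than in untreated fibroblasts. The related Adamts4 and Adamts15 had no UMI in the 23 untreated cells. Adamts4 had 62.3 CPM in lesional and 35.6 CPM in imiquimod fibroblasts, at least 4.45-fold and 2.54-fold above the level of 3 counts in the untreated class. Adamts15 had 49.1 CPM in lesional and 28.3 CPM in imiquimod fibroblasts, at least 3.51-fold and 2.02-fold above that level. Adamts1, an enzyme of the same branch, did not follow them: it had 310, 255 and 294 CPM in the lesional, imiquimod and untreated classes and was called in none of the 3 comparisons.

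Between lesional and imiquimod fibroblasts 15 of 24 measured members were called higher, where 33.4% of all measured genes were, and 1 was called lower, where 8.60% of all measured genes were. The members' median log2 ratio was 0.97, against 0.51 over all genes. After scaling by the median ratio of all genes 11 of the 24 were called, higher and lower together. The share of all genes called after that scaling was not counted. Besides those named, the higher members were the minor procollagen N-proteinase Adamts14 (6.10-fold; 4.04-fold with the stricter gate), Adamts10, which acts on fibrillin microfibrils (36.6 CPM against 6.74 CPM, 5.43-fold), Adamts12 (3.04-fold), Adamts9 (3.13-fold), the membrane-bound Mmp16 (6.68-fold; 2.98-fold as a mean over cells), Mmp23 (1.80-fold), Mmp27 (6.17-fold) and Adamts5 (1.94-fold). After scaling by the median ratio of all genes the Mmp23 ratio was 1.26, and Mmp23, Mmp2, Timp2, Adamts5, Adamts9 and Adamts12 were no longer called. That scaling also made Mmp3 a lower call beside Timp1, at −0.90 on the log2 scale relative to all genes. On the log2 scale relative to all genes Timp2 stood at 0.35 and Adamts5 at 0.43. Adamts18 had 90 UMIs in lesional and 0 in imiquimod fibroblasts, at least 11.1-fold, with a UMI in only 3.13% of the lesional fibroblasts. The collagenase Mmp13 and the stromelysin Mmp10 were called too, but rested on few cells: in lesional fibroblasts 116 of 291 Mmp13 UMIs and 72 of 92 Mmp10 UMIs were in 1 cell each, and 7 and 5 cells had any. Mmp13 was 9.0-fold higher in lesional than in imiquimod fibroblasts, or 3.95-fold as a mean over cells, and Mmp10 at least 11.4-fold; without the top cell the Mmp10 level was 2.39 CPM. Between lesional and untreated fibroblasts 8 of 23 measured members were called higher, where 5.42% of all genes were, and 1 was called lower, where 4.54% were.

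Markers of other cells in the fibroblast classes were measured beside these values. The 12 fibroblast markers summed to 45926 CPM in lesional, 22219 CPM in imiquimod and 72277 CPM in untreated fibroblasts, all 12 detected each time. Neutrophil markers summed to 315, 2769 and 710 CPM in the same order, and vascular markers to 67.7, 70.3 and 60.7 CPM. The 16 of 18 AP-1, immediate-early and dissociation-stress genes that were lower in imiquimod than in untreated fibroblasts, where 9.23% of all genes were, included Atf3 (6.36-fold), Dusp1 (5.43-fold) and Jund (5.23-fold). The part of these shifts in the member ratios was not tested.

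The substrates of these enzymes were read from a list. Of 12 measured collagen, elastin and basement-membrane genes none was called higher and 6 lower in imiquimod than in untreated fibroblasts, against 3.65% and 9.23% of all genes, with a median log2 ratio of −0.55; Col1a1, the main chain of fibrillar collagen, had 1496 CPM in imiquimod and 17230 CPM in untreated fibroblasts. All 12 were called higher in lesional than in imiquimod fibroblasts, where 33.4% of all genes were, led by fibronectin (Fn1, 7.96-fold), Col5a1 (7.68-fold) and Col1a1 (5.67-fold). Of 8 other inhibitors and inducers of metalloproteases 1 was higher and 4 lower in imiquimod than in untreated fibroblasts, among them Reck, a membrane-anchored inhibitor of MMP2, MMP9 and MMP14 (7.03-fold lower), and Thbs1 (4.82-fold lower). Of 11 genes of procollagen and fibrillin handling none was higher and 5 were lower in imiquimod than in untreated fibroblasts, and 8 were higher in lesional than in imiquimod fibroblasts. All 4 measured ADAMTS-like genes, which lack a protease domain, were higher in lesional than in imiquimod fibroblasts, led by Adamtsl1 (6.48-fold). Of 7 measured cytokines and growth factors that induce metalloproteases 3 were higher in imiquimod than in untreated fibroblasts, including Il6 (91.5 CPM in imiquimod and 14.0 CPM in untreated fibroblasts) and Il1b, made mainly by leukocytes (212 CPM in imiquimod and 9.34 CPM in untreated fibroblasts), in the library where neutrophil markers were also highest.

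Fibroblasts with at least 2 UMIs of Pi16 or Dpp4, markers of adventitial-type fibroblasts, numbered 423 of the lesional and 75 of the imiquimod cells. They were read more deeply, with a median of 12448 UMIs against 7985 for the other lesional fibroblasts and 9475 against 8643 in the imiquimod dermis. In lesional skin the Pi16 or Dpp4 class had more Mmp2 (2149 CPM against 1129 CPM), more Adamts5 (552 CPM against 208 CPM) and more Adamts2 (555 CPM against 302 CPM) than the other fibroblasts. It had less Timp3 (486 CPM against 1015 CPM) and less Mmp11 (98.1 CPM against 146 CPM). In imiquimod dermis Mmp11 had the opposite direction, at 93.5 CPM in the Pi16 or Dpp4 class and 52.1 CPM in the others. The Adamts2 and Timp3 contrasts had the same direction in imiquimod dermis: Adamts2 had 288 CPM against 162 CPM, and Timp3 had 15 CPM against 123 CPM. Mmp2 had 921 CPM against 888 CPM there, and Adamts5 had 224 CPM against 245 CPM, with intervals that overlap. Between libraries, Adamts5 was thus higher in lesional than in imiquimod cells of the Pi16 or Dpp4 class. Among the other fibroblasts it was not, at 208 CPM and 245 CPM with overlapping intervals. The Pi16 or Dpp4 class was a larger part of the lesional fibroblasts, and the part of this mix in the ratios between libraries was not tested. Timp1 had 3840 CPM in the Pi16 or Dpp4 class and 3034 CPM in the other imiquimod fibroblasts, so that the high Timp1 level of imiquimod dermis was present in both.

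**Figure D3:**
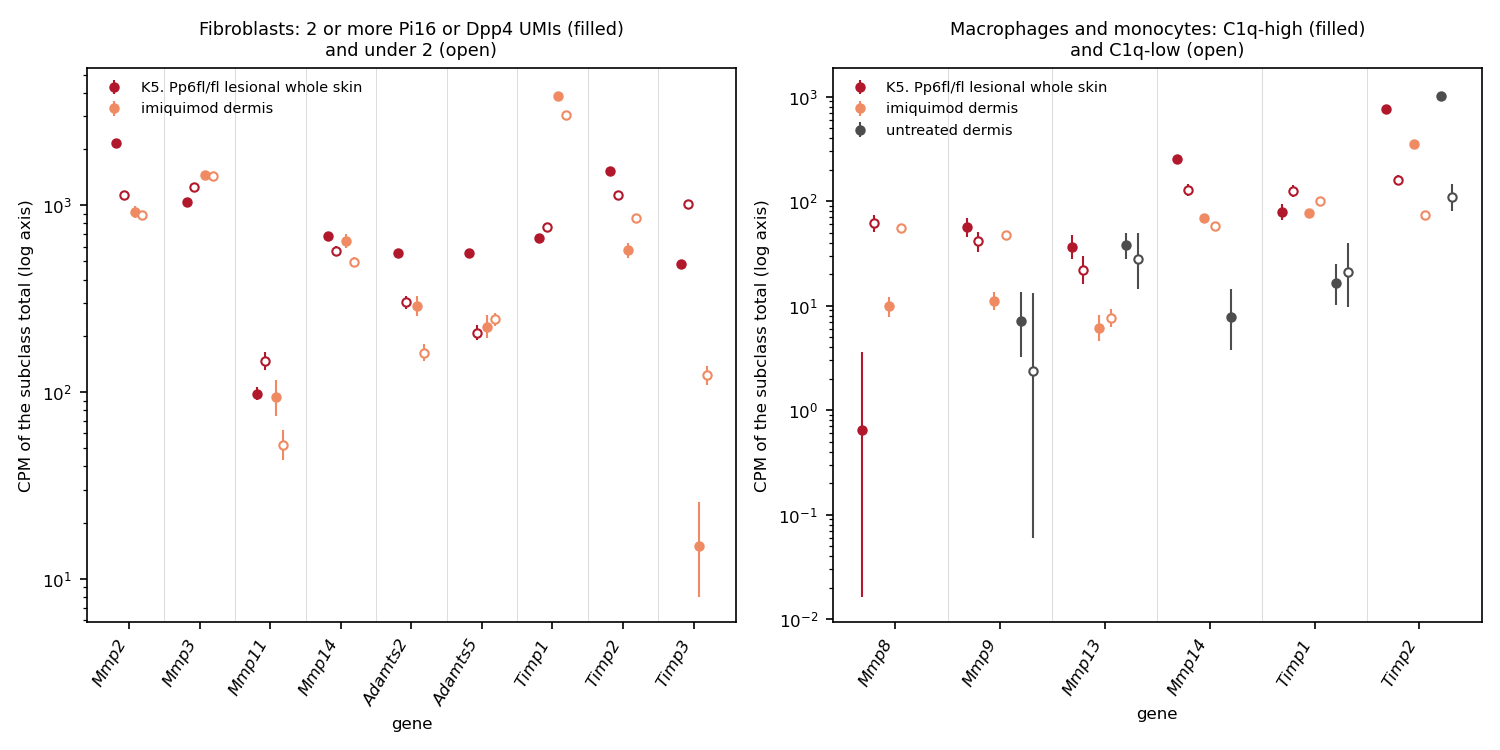
Left, level of 9 members in lesional and imiquimod fibroblasts with at least 2 Pi16 or Dpp4 UMIs (filled) and with fewer (open). Right, level of 6 members in C1q-high (filled) and C1q-low (open) macrophages and monocytes of the lesional, imiquimod and untreated dermis libraries. Levels are CPM on a log axis with 95% exact Poisson intervals, and levels of 0 are not drawn; lesional Mmp2 and Adamts5 are higher in the filled fibroblasts, and Timp2 is higher in the filled macrophages of all 3 libraries.

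Blood vascular endothelial cells numbered 169 in lesional skin and 31 in imiquimod dermis. Adamts1, Adamts4 and Adamts9, named here, were not particular to endothelium, as their highest levels were in pericytes or smooth muscle. Of 16 measured members 5 were called higher in lesional endothelium, where 15.3% of all measured genes were, and none lower, where 6.41% were. The members' median log2 ratio was 1.09, against 0.40 over all genes. Adamts1, known to restrain angiogenesis, had 469 CPM in lesional and 131 CPM in imiquimod endothelium (3.57-fold, 2.78 to 4.66). Adamts9 had 203 CPM and 63.6 CPM (3.19-fold, 2.22 to 4.72) and Adamts4 had 144 CPM and 31.8 CPM (4.53-fold, 2.74 to 8.02; 9.32-fold without the top cells). Timp3, which also blocks the receptor of vascular endothelial growth factor, had 323 CPM and 97.3 CPM (3.32-fold; 5.17-fold without the top cells).

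The largest ratio in endothelium was that of Mmp3, at 443 CPM in lesional and 21.9 CPM in imiquimod cells (20.3-fold, 11.3 to 40.7). It came from 21 of 169 lesional cells, and 1 of them held 284 of 933 UMIs; without it the lesional level was 313 CPM, and as a mean over cells the ratio was 6.11. In the 21 cells with Mmp3, fibroblast markers summed to 1536 CPM and macrophage markers to 900 CPM, against 177 CPM and 281 CPM in the 148 cells without it. Vascular markers were at 8323 CPM in the 21 cells and 8576 CPM in the 148. The part of other cells' RNA in this level was not tested. The membrane-bound Mmp15 had 53.2 CPM in lesional and 21.9 CPM in imiquimod endothelium, and Mmp14 had 185 CPM and 107 CPM; neither was called.

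Lymphatic endothelium and pericytes or smooth muscle cells passed 20 cells in the lesional library only, so no comparison was possible. The 75 lymphatic cells had 1903 CPM of Timp3 (1817 to 1992), with a UMI in 71 of them, 858 CPM of Timp2, 320 CPM of Adamts5 and 236 CPM of Adamts1. Their Mmp13 level of 531 CPM was the highest of any class, but 1 cell held 403 of 512 UMIs, and without it the level was 116 CPM; this cell also held 307 fibroblast-marker and 54 lymphatic-marker UMIs. The 25 pericytes or smooth muscle cells had 1182 CPM of Adamts1 (1032 to 1347), 783 CPM of Timp3, 772 CPM of Adamts4 and 310 CPM of Adamts9, the highest levels of these 3 Adamts genes in any class. Top cells held 29.8% to 41.6% of the UMIs of Adamts1, Adamts4 and Timp3 here, and without them the levels were 874, 559 and 493 CPM. Timp4, rare elsewhere, had 158 CPM in this class, 19 of 30 UMIs in 1 cell.

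Neutrophils, which store MMP8 and MMP9 in granules, numbered 75 in lesional skin and 801 in imiquimod dermis. Of 10 measured members 5 were called higher in lesional neutrophils, where 11.4% of all measured genes were, and 2 lower, where 8.69% were. Mmp8 (chr9:7558456-7568485, plus strand) had 946 CPM (831 to 1073) in lesional and 308 CPM in imiquimod neutrophils, 3.07-fold (2.66 to 3.53). Mmp9 (chr2:164940780-164955850, plus strand) had 821 CPM and 366 CPM, 2.25-fold (1.93 to 2.60). The median log2 ratio over all genes was −0.02. The 10 neutrophil markers summed to 223005 CPM in lesional and 145761 CPM in imiquimod neutrophils, so markers and both granule enzymes stood higher in the same library.

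The other calls in neutrophils rested on few cells or low levels. Timp3 had 187 CPM in lesional and 10.5 CPM in imiquimod neutrophils, but 3 lesional cells held all 48 UMIs and 1 of them 31; vascular markers summed to 3097 CPM in these 3 cells, against 90.1 CPM in the other 72. The ratio was 17.8, and 2.12 with joint clusters. Of the 19 lesional Adamts1 UMIs 18 were in 1 cell, and without the top cells the ratio turned to 0.680, from 11.03 with them. Adamts5 had 7 lesional UMIs, all in 1 cell. The 2 members called lower were Timp1 (7.78 CPM in lesional and 106 CPM in imiquimod neutrophils) and Mmp2 (7.78 CPM and 53.0 CPM), and fibroblast markers summed to 245 CPM and 699 CPM in the same 2 classes. Of the 364 imiquimod Timp1 UMIs 125 were in 1 cell, and without it the imiquimod level was 70.0 CPM. The part of free RNA in these levels was not tested.

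Macrophages and monocytes numbered 322 in lesional skin, 2482 in imiquimod dermis and 292 in untreated dermis. Of 8 measured members 6 were called higher in imiquimod than in untreated cells, where 6.66% of all measured genes were, and 2 lower, where 18.3% were. Between lesional and untreated cells 4 of 6 were higher, where 9.72% of all genes were, and 1 lower, where 5.68% were. Mmp14 had 183 CPM in lesional, 62.2 CPM in imiquimod and 5.89 CPM in untreated macrophages. The lesional level was 31.0-fold (16.7 to 64.9) and the imiquimod level 10.6-fold (5.73 to 22.1) the untreated one, or 19.1-fold and 6.83-fold with joint clusters, and lesional stood 2.93-fold (2.67 to 3.22) above imiquimod. The 3 libraries were thus ordered lesional, imiquimod, untreated, with intervals that do not meet.

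Timp2 was lower than in untreated dermis in both libraries where Mmp14 was higher. It had 428 CPM in lesional, 182 CPM in imiquimod and 794 CPM in untreated macrophages, 4.37-fold (4.10 to 4.65) lower in imiquimod and 1.86-fold (1.72 to 2.0) lower in lesional than in untreated macrophages. Between lesional and imiquimod macrophages Timp2 was called higher, as Mmp14 was, by 2.35-fold (2.22 to 2.5). Timp2 was also split by complement C1q, which alone does not separate resident from monocyte-derived macrophages. C1q-high cells, those above a fixed share of C1q UMIs, had 769, 351 and 1023 CPM in the lesional, imiquimod and untreated libraries, while C1q-low cells had 161, 74.4 and 110 CPM. Within C1q-high cells the order of the libraries was the same as in the whole class. Within C1q-low cells it was not, as the lesional level stood above the untreated one. Mmp14 was present in both kinds of lesional cell, at 252 CPM in C1q-high and 128 CPM in C1q-low cells.

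Mmp8 had no UMI in the 292 untreated macrophages and 34.7 CPM in lesional and 37.7 CPM in imiquimod macrophages, at least 19.6-fold and 21.3-fold above the level of 3 counts. In imiquimod dermis it had 9.83 CPM in C1q-high and 55.3 CPM in C1q-low cells, and in neutrophils of that library 308 CPM. Mmp9 had 47.9, 33.4 and 5.89 CPM in lesional, imiquimod and untreated macrophages; 1 cell held 72 of 170 lesional and another 333 of 753 imiquimod UMIs, and without them the levels were 28.0 CPM and 18.7 CPM. Neutrophil markers in the macrophage class summed to 781 CPM in lesional, 2965 CPM in imiquimod and 369 CPM in untreated cells, and their part was not tested. The collagenase Mmp13 was called 5.01-fold (3.66 to 6.78) lower in imiquimod (7.05 CPM) than in untreated macrophages (35.4 CPM) and 4.03-fold higher in lesional (28.5 CPM) than in imiquimod macrophages. Only 10 untreated cells carried it, and 1 held 22 of 60 UMIs.

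Timp1 in macrophages had 105 CPM in lesional, 90.6 CPM in imiquimod and 17.7 CPM in untreated cells. Mmp3 had 5.92, 24.8 and 0 CPM and Mmp2 had 4.51, 19.4 and 5.89 CPM in the same order. In imiquimod dermis, where fibroblasts carried 3258 CPM of Timp1 and 1439 CPM of Mmp3, the leukocyte classes had Timp1 from 69.3 CPM in dendritic cells to 106 CPM in neutrophils and Mmp3 from 22.7 CPM in dendritic cells to 42.3 CPM in mast cells. In that library 1 neutrophil held 125 of 364 Timp1 UMIs, and 1 T cell or innate lymphoid cell held 82 of 230. Without these cells the Timp1 levels were 70.0 CPM in neutrophils and 57.6 CPM in T cells and innate lymphoid cells. The part of free RNA in the leukocyte levels was not tested. Against imiquimod macrophages, lesional macrophages had 3 of 8 members higher, where 29.8% of all genes were, and 2 lower, where 6.50% were; the 2 were Mmp2 and Mmp3.

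**Figure D4:**
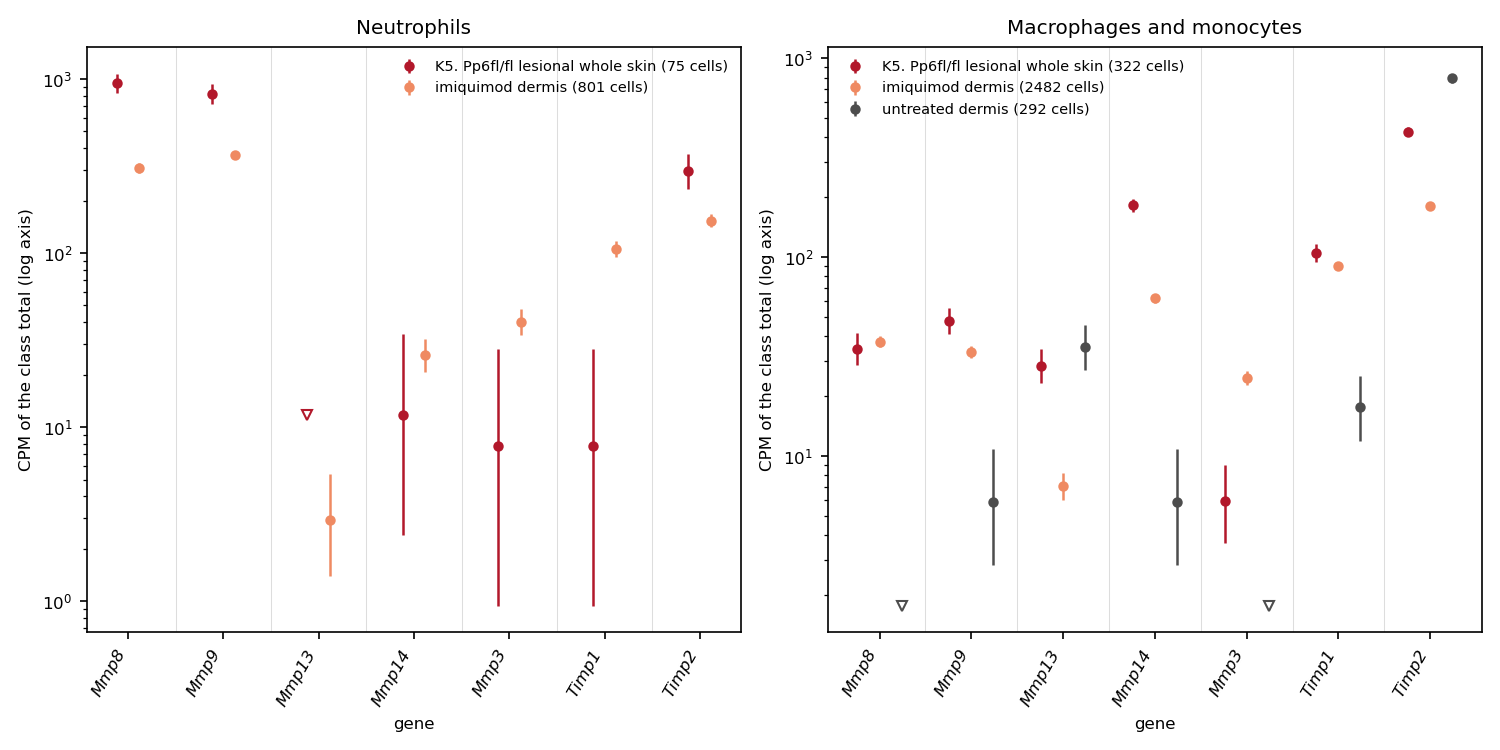
Level of 7 members in neutrophils of lesional skin and imiquimod dermis (left) and in macrophages and monocytes of lesional skin, imiquimod and untreated dermis (right), as CPM on a log axis with 95% exact Poisson intervals; open triangles mark the level of 3 counts where a library had 0. Mmp8 and Mmp9 are higher in lesional than in imiquimod neutrophils, and Mmp14 and Timp2 order the macrophage libraries in different ways.

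The genes around these enzymes in myeloid cells were read from the same lists. In this comparison of lesional with imiquimod macrophages 29.8% of all genes were higher and 6.50% lower. Of 11 measured cathepsins and cystatins 7 were higher and none lower, led by Ctsl (3.82-fold) and Ctsd (3.45-fold), and none was higher and 4 were lower in lesional than in imiquimod neutrophils, where 11.4% and 8.69% of all genes were. Versican (Vcan), a proteoglycan that ADAMTS enzymes cut, had 111 CPM in lesional, 104 CPM in imiquimod and 2.95 CPM in untreated macrophages. Of 6 measured ADAM proteases, membrane-bound relatives that shed surface proteins, 5 were higher in lesional than in imiquimod macrophages, among them Adam8 (3.45-fold) and Adam17 (2.74-fold). Of the 18 AP-1 and dissociation-stress genes 14 were higher and none lower in lesional than in imiquimod macrophages.

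Keratinocytes, 418 in lesional skin, 1539 in non-lesional epidermis and 490 in untreated epidermis, had few members at 10 CPM or more, 8, 6 and 7 in these libraries. Between non-lesional and untreated epidermis 1 of 7 measured members was called, where 1.89% of all measured genes were lower and 3.26% higher: Mmp3 had 45.0 CPM in non-lesional and 106 CPM in untreated keratinocytes, 2.36-fold (2.03 to 2.75) lower. The untreated epidermis held 294 cells with under 0.1% mitochondrial UMIs, and without such cells the ratio was 0.561 and the call was lost. Timp3 (108 CPM in non-lesional and 125 CPM in untreated keratinocytes), Mmp2 (66.9 CPM and 77.0 CPM), Mmp14 (89.2 CPM and 70.6 CPM) and Adamts1 (77.8 CPM and 52.3 CPM) were not called, and their ratios had intervals within 1.82-fold in either direction.

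Between lesional and non-lesional keratinocytes 4 of 8 measured members were called higher, where 27.7% of all measured genes were, and 2 lower, where 10.9% were. The members' median log2 ratio was 0.78, against 0.22 over all genes. Adamts1 had 207 CPM in lesional and 77.8 CPM in non-lesional keratinocytes (2.66-fold, 2.47 to 2.85), Timp3 had 210 CPM and 108 CPM (1.93-fold) and Adamts5 had 17.6 CPM and 2.03 CPM (8.70-fold, 5.90 to 13.2). The 2 lower members were Mmp2, at 17.1 CPM in lesional and 66.9 CPM in non-lesional keratinocytes (3.91-fold, 3.34 to 4.60), and Mmp3, at 17.1 CPM and 45.0 CPM (2.63-fold, 2.24 to 3.11). Fibroblast markers summed to 326 CPM in lesional, 50.2 CPM in non-lesional and 43.1 CPM in untreated keratinocytes.

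In non-lesional keratinocytes with an Mmp2 UMI fibroblast markers summed to 57.1 CPM, against 43.2 CPM in those without. In those with an Mmp3 UMI they summed to 76.0 CPM, against 40.7 CPM in those without. The part of fibroblast RNA in the keratinocyte levels of Mmp2 and Mmp3 was not tested. The fourth higher member, Mmp9, had 13.8 CPM in lesional and 4.60 CPM in non-lesional keratinocytes, but 1 cell held 137 of the 152 lesional UMIs. Without the top cells the lesional level was 1.38 CPM and the ratio 0.328, the other way round.

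**Figure D5:**
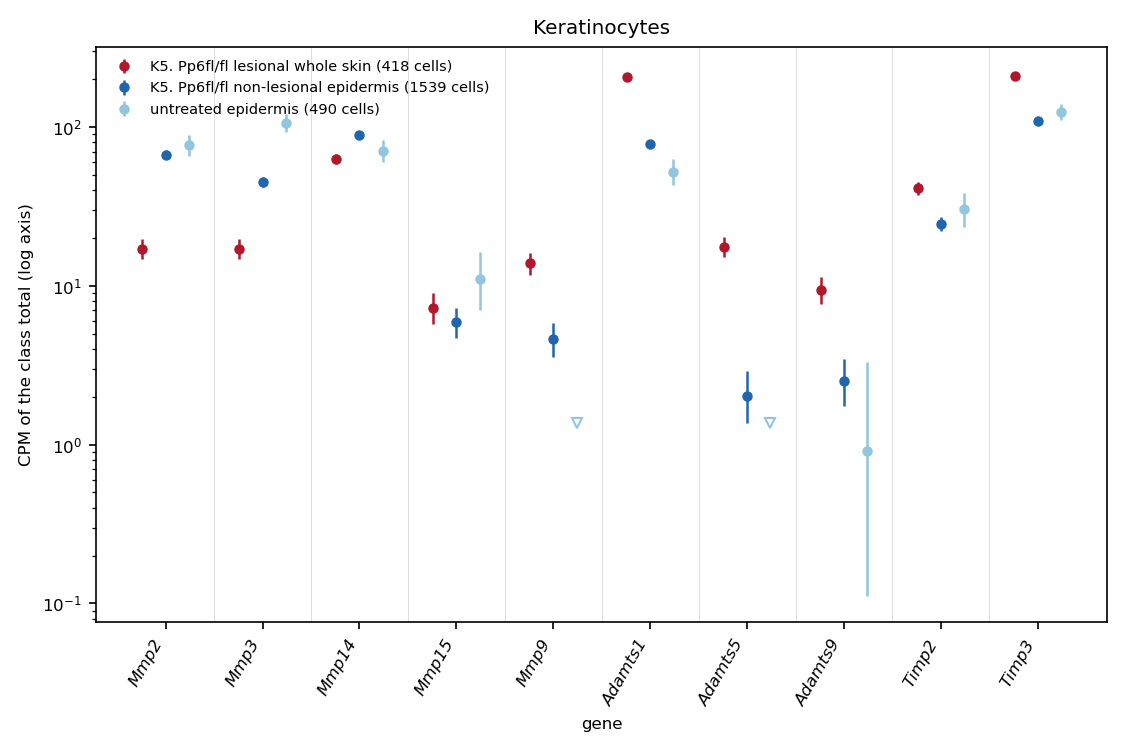
Level of 10 members in keratinocytes of lesional skin, non-lesional epidermis and untreated epidermis, as CPM of the class total on a log axis; bars are 95% exact Poisson intervals and open triangles mark the level of 3 counts where a library had 0. Mmp2 and Mmp3 are lowest in the lesional library, and Adamts1, Adamts5 and Timp3 are highest there.

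The share of follicle-marked keratinocytes differed between libraries. Cells with at least 5 UMIs of hair follicle markers were 306 of 418 lesional, 249 of 1539 non-lesional and 58 of 490 untreated keratinocytes. Depth differed too, with medians of 21447.5, 9303 and 2191 UMIs per keratinocyte in the same order. A deeper cell passes this cut on raw UMIs more easily, and the part of depth in these shares was not tested. Among these follicle-marked cells Timp3 had 267 CPM in lesional, 143 CPM in non-lesional and 209 CPM in untreated skin; among the others it had 66.6, 99.9 and 108 CPM. Timp3 was thus higher in lesional than in non-lesional skin among follicle-marked cells and lower among the others. Adamts1 was higher in lesional than in non-lesional skin in both, at 236 CPM against 56.0 CPM in follicle-marked cells and 133 CPM against 83.2 CPM in the others. Mmp2 was lower in lesional than in non-lesional skin in both, at 18.5 CPM against 34.8 CPM and 13.6 CPM against 74.8 CPM. In cells below the follicle cut Mmp3 had 45.3 CPM in lesional, 52.4 CPM in non-lesional and 127 CPM in untreated skin, with overlapping intervals for the first pair, while in follicle-marked cells it had 5.74 CPM in lesional and 15 CPM in non-lesional skin.

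Of 6 measured genes of plasminogen activation, the protease system that activates several Mmp precursors, 4 were higher in lesional than in non-lesional keratinocytes and 1 lower, against 27.7% and 10.9% of all genes. The urokinase receptor Plaur had 20.6 CPM in lesional and 0.541 CPM in non-lesional keratinocytes (38.2-fold, 19.0 to 89.5), Plat was 13.6-fold higher, and Serpinb2, an inhibitor of urokinase, was 2.80-fold lower. Of the 18 AP-1 and dissociation-stress genes 6 were higher and 7 lower in this comparison, and none was called between non-lesional and untreated epidermis, where 3.26% of all genes were higher and 1.89% lower. The EGF receptor ligand Areg, among the genes that induce metalloproteases, had 84.0 CPM in lesional and 11.5 CPM in non-lesional keratinocytes.

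T cells and innate lymphoid cells were present in all 5 libraries. Timp2 was similar in the 3 libraries with dermis, at 73.8 CPM in lesional skin, 64.4 CPM in imiquimod and 60.3 CPM in untreated dermis, with 21.9 CPM in non-lesional and 20.7 CPM in untreated epidermis. Between lesional and non-lesional skin 2 of 8 measured members were higher, where 18.0% of all genes were, and 2 were lower (Timp1 and Timp3), where 19.4% were. Timp2 was higher by 3.38-fold (2.52 to 4.56). The lipid-anchored Mmp25 was the other higher member: it had 12.8 CPM in lesional and no UMI in non-lesional cells, at least 13.1-fold, and 20.1 CPM in untreated dermis. Adamts10 had 33.0 CPM in lesional, 10.0 CPM in imiquimod, 15.6 CPM in untreated dermis, 20.9 CPM in non-lesional and 32.4 CPM in untreated epidermis, 3.29-fold higher in lesional than in imiquimod cells. It was the only member called higher of 10 measured in that comparison, where 28.0% of all genes were, and 4 were lower, where 6.91% were: Timp1, Timp3, Mmp13 and Mmp3. With joint clusters the Timp3 ratio turned to 1.80, from 0.223. Timp1 in epidermal T cells and innate lymphoid cells had 22.8 CPM in non-lesional and 77.7 CPM in untreated epidermis, 3.40-fold (2.51 to 4.64) lower; in that comparison 1 of 7 members was lower, where 1.53% of all genes were, and 3 were higher, where 3.70% were. Between imiquimod and untreated dermis 3 of 9 were higher, where 3.44% of all genes were, and none lower, where 10.3% were. The higher members were Timp1, Mmp3 and Mmp13, and 82 of 230 imiquimod Timp1 UMIs were in 1 cell. Between lesional and untreated dermis none of 5 was called, where 6.96% of all genes were higher and 4.75% lower.

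The rarer classes gave few calls. In Schwann cells, 24 in lesional skin and 26 in imiquimod dermis, none of 8 measured members was called, where 5.69% of all measured genes were higher and 2.95% lower. Timp3 had 782 CPM in lesional and 470 CPM in imiquimod Schwann cells, Timp2 had 621 CPM and 546 CPM, and the lipid-anchored Mmp17, highest in this class, had 96.8 CPM and 38.3 CPM from 12 and 4 UMIs. In mast cells, 125 in lesional skin and 112 in imiquimod dermis, none of 5 members was higher, where 5.72% of all genes were, and 1 was lower, where 6.65% were. This was Timp1, with 1 UMI in lesional and 10 UMIs in imiquimod mast cells (13.9-fold lower, 1.98 to 605). Adamts9 (55.7 CPM and 56.5 CPM) and Adamts5 (65.8 CPM and 42.3 CPM) were present in both mast cell classes. In melanocytes, 21 in lesional skin and 24 in non-lesional epidermis, none of 6 members was higher, where 3.27% of all genes were, and 1 was lower, where 3.90% were: Timp2 had 156 CPM in lesional and 407 CPM in non-lesional melanocytes, 2.61-fold (1.76 to 3.86) lower.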

How the data were processed

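Single cells from skin digested with enzymes, sorted to remove dead cells, were captured with the Chromium 3′ version 3 chemistry, per the labels' protocols. The authors deposited UMI counts per gene and barcode, made with CASAVA and Cell Ranger on mm10 per the submitters' processing notes; the file headers give software version 3.0.2. Whether counting used strand is not stated, and 11 members overlap a protein-coding gene, among them Timp1, Timp3 and Timp4. Counts are 3′ tags and are compared between cells, not between genes.

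From the deposited counts, barcodes with at least 200 genes and under 20% mitochondrial UMIs were kept, and Scrublet in scanpy 1.11.5 removed 365 of 11942 as doublets. A cell joined a class where its best marker score (mean of the top 5 scaled markers) reached 0.35, at least 3 markers were detected and the second class stayed under 0.75 of the best; 10492 cells joined a class and 771 were mixed. These cuts were set after seeing the data. Class UMIs were summed per library. Intervals are exact Poisson (levels) and exact conditional binomial (ratios), computed with scipy 1.17.1. They were tested on simulated Poisson counts. Such counts lack the clumping of UMIs in single cells seen here, so the test does not cover it. A library at 0 is given a floor of 3 counts.

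Mmp12 and Mmp19 were left out by the rule. The members and lists were chosen with earlier results of these data known. Members with 50 UMIs are described, and from each list up to 3 called genes per direction were eligible for naming, by size. Alternatives were stricter filters and gates, joint clusters, other scalings, cutoffs and pseudocounts, and leaving out top cells.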

Additional observations from a re-analysis of the deposited data

Results flagged for a closer look

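Some members were called in opposite directions in different cell classes of the same library pair. None of these differences between classes was tested, since each group had 1 library.

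Between imiquimod and untreated dermis, the ratio of Mmp2 was 0.416 in fibroblasts and 3.29 in macrophages, where the imiquimod level was 19.4 CPM and the untreated level 5.89 CPM. Fibroblast markers in the macrophage classes summed to 228 CPM in imiquimod and 105 CPM in untreated dermis. The ratio of Mmp13 was 0.20 in macrophages and at least 3.80 in T cells and innate lymphoid cells, where 1 imiquimod cell held 40 of 66 UMIs.

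Between lesional skin and non-lesional epidermis, the ratio of Timp2 was 0.383 in melanocytes and 3.38 in T cells and innate lymphoid cells. The ratio of Timp3 was 1.93 in keratinocytes and 0.172 in T cells and innate lymphoid cells, with 6 lesional and 49 non-lesional UMIs behind the last.

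Between lesional skin and imiquimod dermis, the ratio of Mmp13 was 9.0 in fibroblasts and 4.03 in macrophages, while in T cells and innate lymphoid cells it was at least 18.5 times lower. The ratio of Mmp2 was 2.10 in fibroblasts, 0.147 in neutrophils and 0.233 in macrophages. The ratio of Mmp3 was 20.3 in vascular endothelium, 0.239 in macrophages and 0.342 in T cells and innate lymphoid cells. The ratio of Timp3 was 6.72 in fibroblasts, 3.32 in vascular endothelium, 17.8 in neutrophils and 0.223 in T cells and innate lymphoid cells, where joint clusters turned it to 1.80; the neutrophil ratio was 2.12 with joint clusters. Fibroblast markers were lower in the lesional than in the imiquimod class of both neutrophils (245 CPM and 699 CPM) and macrophages (78.3 CPM and 228 CPM); their part in the Mmp2 and Mmp3 ratios was not tested.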

How the results depend on the processing

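No paired analysis was possible because each group had 1 library. Of 177 alternative counts of called members 164 stayed within 1.5 times the first count. Between non-lesional and untreated keratinocytes (1 call) the count was 0 without cells under 0.1% mitochondrial UMIs and 2 with a minimum of 20 UMIs and none on CPM, and between lesional and non-lesional keratinocytes (6 calls) it was 15 with that minimum. Calls beyond 2-fold numbered 0 in melanocytes (1 call), 0 in mast cells (1 call) and 3 in T cells and innate lymphoid cells between lesional and imiquimod libraries (5 calls). In mast cells the count was also 0 with stricter filters, the stricter gate, without the top cell and with 20 UMIs. Joint clusters gave 3 in Schwann cells (0 calls) and 4 in neutrophils (7 calls), and the stricter gate gave 1 in T cells and innate lymphoid cells between lesional and untreated dermis (0 calls). The lesional over non-lesional ratio of keratinocyte Mmp9 turned to 0.487 as a mean over cells and 0.328 without the top cell. The lesional over imiquimod ratio of neutrophil Adamts1 turned to 0.826 and 0.680 under joint clusters and without the top cell, and that of Timp3 in T cells and innate lymphoid cells to 1.80 under joint clusters. The cause was not tested. Of 813 ratios under alternatives 742 stayed inside the counting interval of the first value, which is wide for rare genes. List medians were less stable, and 41 of 139 moved by at least 0.1 on the log2 scale with a pseudocount of 1 CPM. Shares of cells with a member depended on depth: 130 of 150 left their interval after thinning cells to 2000 UMIs. Melanocytes and Schwann cells gave no value under the stricter gate, nor melanocytes under the stricter filter, having under 20 cells. The 23 untreated fibroblasts limit what could be seen there.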

Other observations

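Cd207-positive cells of the non-lesional epidermis, a class that holds Langerhans cells, numbered 185 and had 260 CPM of the gelatinase Mmp9 and 52.7 CPM of Mmp14; the other libraries held too few for a value. The 53 dendritic cells of imiquimod dermis had 21.3 CPM of Mmp25, the highest level of that gene.

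Summed over members, fibroblasts held 0.692 TIMP UMIs per MMP UMI in lesional skin, 1.37 in imiquimod dermis and 1.2 in untreated dermis. The lesional fibroblasts had 3952 CPM of MMP and 2734 CPM of TIMP transcripts, the imiquimod fibroblasts 3025 CPM and 4131 CPM, and the untreated fibroblasts 2918 CPM and 3488 CPM. In macrophages the same ratio was 1.74 in lesional skin, 1.46 in imiquimod dermis and 14.6 in untreated dermis. In keratinocytes it was 1.89 in lesional skin, 0.625 in non-lesional and 0.572 in untreated epidermis. These sums weight each gene by its 3′ counts and do not measure a balance of proteins. They leave out Mmp12 and Mmp19. Mmp12 was among the top 10 genes of lesional macrophages by fold, so the macrophage ratios do not cover all MMP transcripts.

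Some members stayed low wherever a class held at least 10 UMIs of them. Adamts20 reached 3.45 CPM in lesional keratinocytes, and in lesional fibroblasts Adamts17 had 4.41 CPM, Adamts6 had 7.63 CPM and Adamts8 had 3.34 CPM, each the highest such level of its gene. Likewise Mmp28 reached 2.64 CPM in non-lesional keratinocytes.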
